A study of Mus musculus with 8 samples.

Results

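The TNF superfamily ligands, their receptors and the adaptor proteins that bind the receptors inside the cell were followed in mouse CD4 T cells with and without RORγt and digoxin. A list of 39 gene symbols was matched to the probe annotation of the array, and all probe sets of those symbols were taken. That gave 64 probe sets of 36 genes, out of 45037 probe sets and 18193 named genes on the array. They comprised 19 probe sets of 12 ligands, 28 of 17 receptors and 17 of 7 adaptors. Tnfrsf26, Traf3 and Ripk1 were matched to no probe set with a single symbol and were not analysed here.

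The arrays were Affymetrix Mouse Genome 430 2.0 chips, 2 for each of 4 groups. The groups were RORγt-deficient cells in digoxin (KO digoxin), RORγt-deficient cells in DMSO (KO DMSO), wildtype cells in digoxin (WT digoxin) and wildtype cells in DMSO (WT DMSO). All were naive C57BL/6 CD4 T cells, purified by flow sorting, activated through CD3 and CD28 and held in Th17 culture for 48 h. Th17 differentiation is driven by the nuclear receptor RORγt, and digoxin is a cardiac glycoside that inhibits the sodium pump; the title of the series names it an antagonist of RORγt. Neither a digoxin dose, nor the age of the mice, nor the mutant allele of RORγt was given in the labels. RORγt's own gene was not analysed here, and the genotype of a sample rests on its label alone. Both arrays of a group are named as biological replicates in their titles, but separate animals or cultures are not stated. A p-value here therefore reflects array-to-array spread, which may leave out variation between animals or cultures.

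TNF superfamily ligands are mostly trimers on the cell surface, and each binds a receptor that clusters on contact. The receptors signal through TRAF adaptors to NF-κB and MAP kinases, or, where they carry a death domain, through TRADD and FADD towards cell death. On activated CD4 T cells several of them act as costimulatory molecules, among them OX40, CD30, CD27, GITR and CD137, and T cells themselves carry some of the ligands.

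Each value below is a log2 difference from the mean of the WT DMSO arrays, the form in which the values were deposited, so that group averages 0 for every probe set. Differences between groups are given with the standard error of the limma fit over all 45037 probe sets, with n = 2 arrays per group, and with p-values adjusted by Benjamini-Hochberg over all of them; a call means an adjusted p under 0.05. Array medians lay between -0.005 and 0.025. The SD of the difference between the arrays of a group, over the 64 member probe sets, was 0.19 in KO digoxin, 0.23 in KO DMSO, 0.25 in WT digoxin and 0.17 in WT DMSO. The lowest array level of a probe set before centring was read as a range: it was between 2 and 4 for 10 member probe sets, between 4 and 8 for 38 and at 8 or above for 15, and could not be read for 1. The 11 probe sets of 7 CD4 T cell markers (Cd3e, Cd3d, Cd3g, Cd4, Cd28, Cd5 and Zap70) were all at 8 or above, and none of 35 probe sets for B cells, myeloid and dendritic cells, NK cells, CD8 T cells or gamma delta T cells was.

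In DMSO, probe sets of a costimulatory ligand and of a pair of TRAIL decoy receptors were higher in KO cells than in WT cells. Tnfsf4, the OX40 ligand, was 1.95-fold higher, Tnfrsf23 2.18-fold, and Tnfrsf22 1.67-fold on 1 of its 3 probe sets. These 3 of 64 member probe sets were called in KO DMSO cells against WT DMSO cells, all higher, beside 0.611% of all probe sets called in either direction, 0.184% higher and 0.426% lower. At an unadjusted p under 0.05 the members counted 13 (20.3%), 10 higher and 3 lower, beside 9.06% of all probe sets, 3.9% higher and 5.16% lower. The median difference was 0.09 over the members and 0.01 over all probe sets. Each of the 3 calls was lost under some of the alternative settings given below. In RNA of whole cultures, fewer cells of a type and less RNA per cell cannot be told apart.

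No member was called under digoxin in either genotype. WT digoxin against WT DMSO had 0 of 64 members called by limma, beside 0.0622% of all probe sets, with 10 members (15.6%) at an unadjusted p under 0.05, 7 higher and 3 lower, beside 6.26%, 3.17% higher and 3.1% lower. KO digoxin against KO DMSO also had 0 of 64 called by limma, beside 0.00222% of all probe sets, with 1 member (1.56%) at an unadjusted p under 0.05, beside 3.41%. In cells with both changes, KO digoxin against WT DMSO, 3 members were called, Tnfrsf22 and Tnfrsf23 higher and Tnfsf14 lower, beside 0.941% of all probe sets, 0.315% higher and 0.626% lower. At an unadjusted p under 0.05 the members counted 15 (23.4%), 10 higher and 5 lower, beside 13.9%, 6.64% higher and 7.25% lower. The comparisons of KO DMSO, WT digoxin and KO digoxin with WT DMSO use the same WT DMSO arrays.

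**Figure D1:**
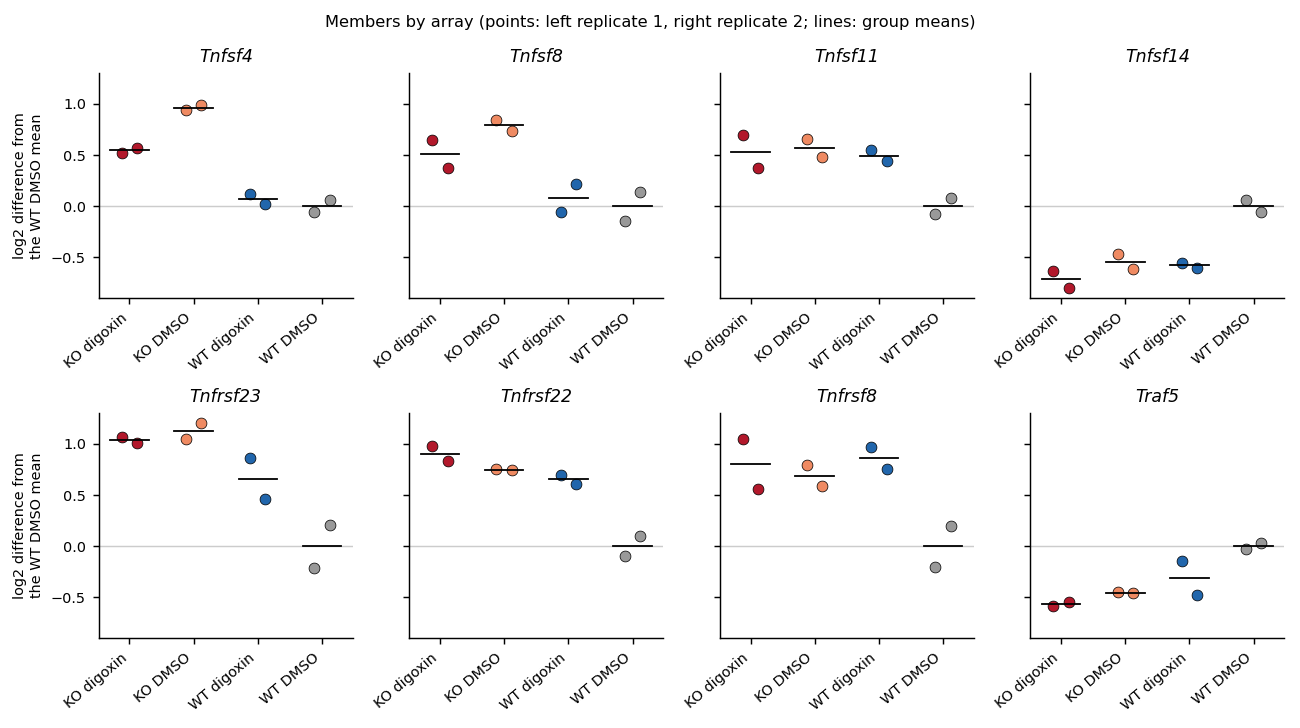
Log2 difference from the WT DMSO mean (vertical axis) on each of the 8 arrays, by group (horizontal axis), for 4 ligands, 3 receptors and Traf5, with points for arrays and lines for group means. Tnfsf4 and Tnfsf8 are high in KO DMSO and near 0 in WT digoxin, while Tnfsf11, Tnfrsf22, Tnfrsf23 and Tnfrsf8 are above WT DMSO and Tnfsf14 below it in all 3 other groups.

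Among the ligands, Tnfsf4 was high in both KO groups and near WT DMSO in WT digoxin. OX40 ligand is known from dendritic cells and B cells and is also carried by activated T cells. Tnfsf4 stood at 0.52 and 0.57 in KO digoxin, 0.94 and 0.99 in KO DMSO and 0.12 and 0.02 in WT digoxin, against -0.06 and 0.06 in WT DMSO. The KO DMSO arrays were the highest, the KO digoxin arrays lay between them and the WT arrays, and the WT groups overlapped. By limma the difference of KO DMSO from WT DMSO was 0.97 ± 0.11 (adjusted p = 0.00645). That of KO digoxin from WT DMSO was 0.54 ± 0.11 and was not called (adjusted p = 0.0525). That of WT digoxin from WT DMSO was 0.07 with a 95% interval of -0.17 to 0.31 (adjusted p = 0.931). In KO cells digoxin arrays lay 0.42 below DMSO arrays (difference -0.42 ± 0.11, adjusted p = 1.0), the only member of that comparison at an unadjusted p under 0.05 (0.00271). The call in DMSO was lost when either WT DMSO array or KO DMSO array 2 was left out, with differences of 0.91 to 1.02. It was also lost after quantile normalisation (limma, adjusted p = 0.169), which widens the narrow spread that centring gives the WT DMSO arrays.

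Tnfsf8, the ligand of CD30, showed the same order of groups. It stood at 0.65 and 0.37 in KO digoxin, 0.84 and 0.74 in KO DMSO and -0.06 and 0.22 in WT digoxin, against -0.14 and 0.14 in WT DMSO. Both KO groups lay above all 4 WT arrays, and the WT groups overlapped. The difference of KO DMSO from WT DMSO was 0.79 ± 0.15 and missed the threshold (adjusted p = 0.0581), while that of WT digoxin was 0.08 (95% interval -0.26 to 0.42). A comparison of KO DMSO with WT digoxin, added after these values were seen, gave 0.90 ± 0.11 for Tnfsf4 (adjusted p = 0.0957) and 0.71 for Tnfsf8 (adjusted p = 0.336), with 0 of 64 members called beside 0.0% of all probe sets and 7 members (10.9%) at an unadjusted p under 0.05, beside 5.04%.

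Tnfsf14 was low on the arrays of all 3 other groups. It encodes LIGHT, which binds HVEM and the lymphotoxin β receptor and costimulates T cells. On its probe set 1450298_at it stood at -0.63 and -0.80 in KO digoxin, -0.47 and -0.61 in KO DMSO and -0.55 and -0.60 in WT digoxin, against 0.06 and -0.06 in WT DMSO. All 6 arrays lay below both WT DMSO arrays, and the 3 groups lay close to each other. It fell by 0.71 ± 0.11 in KO digoxin cells (1.64-fold lower, adjusted p = 0.0216). The differences of KO DMSO (-0.54 ± 0.11, adjusted p = 0.0898) and WT digoxin (-0.57 ± 0.11, adjusted p = 0.212) were not called. Its other probe set, 1421588_at, differed by -0.28 in KO DMSO and -0.16 in WT digoxin.

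Tnfsf11, or RANKL, known for osteoclast formation and made by activated T cells, was above WT DMSO in each of the other groups. Probe set 1451944_a_at stood at 0.70 and 0.37 in KO digoxin, 0.66 and 0.48 in KO DMSO and 0.55 and 0.44 in WT digoxin, against -0.08 and 0.08 in WT DMSO. The first 3 groups overlapped one another and none overlapped WT DMSO. The differences were 0.57 ± 0.14 for KO DMSO (adjusted p = 0.146) and 0.49 ± 0.14 for WT digoxin (adjusted p = 0.515), so neither was called. The second probe set, 1419083_at, differed by 0.39 in KO DMSO and by 0.20 in WT digoxin.

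Cd40lg, the CD40 ligand through which helper T cells activate B cells, stood at -0.16 and -0.11 in KO digoxin, -0.14 and 0.17 in KO DMSO and -0.06 and -0.66 in WT digoxin, against 0.03 and -0.03 in WT DMSO. Its low mean in WT digoxin came from array 2, and its difference of -0.36 ± 0.18 was not called (adjusted p = 0.803). Tnfsf10, which encodes the death ligand TRAIL, stood on probe set 1439680_at at 0.46 and 0.37 in KO digoxin, 0.22 and 0.07 in KO DMSO and 0.39 and 0.05 in WT digoxin, against -0.14 and 0.14 in WT DMSO. The KO digoxin arrays were above the KO DMSO arrays, by 0.27 ± 0.15 (adjusted p = 1.0), and WT digoxin overlapped WT DMSO. The other probe sets of Tnfsf10 differed by 0.09 and 0.23 in KO DMSO and by 0.17 and 0.34 in WT digoxin. The other ligands were Cd70, Fasl, Lta, Ltb, Tnfsf13b (BAFF, a B cell survival factor) and Tnfsf9. Their probe sets differed by -0.29 to 0.41 in KO DMSO and by -0.23 to 0.28 in WT digoxin, and none was called in any comparison.

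The receptors with the largest differences were Tnfrsf23, Tnfrsf22 and Tnfrsf8. Tnfrsf22 and Tnfrsf23 are mouse decoy receptors that bind TRAIL without a working death domain, and they are next to each other on chromosome 7 in the RefSeq table. Tnfrsf23 stood at 1.07 and 1.01 in KO digoxin, 1.05 and 1.20 in KO DMSO and 0.86 and 0.46 in WT digoxin, against -0.21 and 0.21 in WT DMSO. All arrays of the first 3 groups were above both WT DMSO arrays, and the KO arrays were above the WT digoxin arrays. The difference was 1.13 ± 0.17 in KO DMSO (adjusted p = 0.0195) and 1.04 ± 0.17 in KO digoxin (2.05-fold, adjusted p = 0.0217), and in WT digoxin 0.66 ± 0.17, which was not called (adjusted p = 0.427).

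Tnfrsf22 on probe set 1426095_a_at stood at 0.98 and 0.83 in KO digoxin, 0.75 and 0.74 in KO DMSO and 0.70 and 0.61 in WT digoxin, against -0.10 and 0.10 in WT DMSO. The groups did not overlap, with KO digoxin highest and WT DMSO lowest. The difference was 0.74 ± 0.12 in KO DMSO (adjusted p = 0.0233), 0.91 ± 0.12 in KO digoxin (1.87-fold, adjusted p = 0.00861) and 0.66 ± 0.12 in WT digoxin, the last not called (adjusted p = 0.124). Its 3 probe sets did not give the same size. Probe set 1422039_at differed by 0.47 in KO DMSO (adjusted p = 0.162) and 1422038_a_at by 0.13 (adjusted p = 0.881), a spread of 0.61 that was the widest among the 18 member genes with several probe sets and the only one over 0.58. In addition, 1 probe set carries the symbols of both decoy receptors and was not used, and how far RNA of one gene binds the probes of the other was not tested. No member call was left in KO DMSO or KO digoxin when either WT DMSO array was left out. The same held after quantile normalisation, which widens the narrow spread that centring gives the WT DMSO arrays. The count in KO DMSO was also 0 without KO DMSO array 2, 1 without KO DMSO array 1 and 1 without either KO digoxin array, and that in KO digoxin was 0 without either KO digoxin array.

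Tnfrsf8 encodes CD30, the receptor of Tnfsf8, found on activated lymphocytes. It stood at 1.05 and 0.56 in KO digoxin, 0.79 and 0.59 in KO DMSO and 0.97 and 0.75 in WT digoxin, against -0.20 and 0.20 in WT DMSO. The first 3 groups overlapped one another and lay above WT DMSO. Its WT digoxin difference of 0.86 ± 0.19 was the largest of any member in that comparison and was not called (1.82-fold, adjusted p = 0.271), nor was that of KO DMSO (0.69 ± 0.19, adjusted p = 0.206).

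Tnfrsf25, the death receptor DR3, was the lowest receptor in KO DMSO. It stood at -0.29 and -0.48 in KO digoxin, -0.41 and -0.49 in KO DMSO and -0.15 and -0.26 in WT digoxin, against 0.06 and -0.06 in WT DMSO, all 6 arrays below WT DMSO. The KO DMSO difference of -0.45 was not called (adjusted p = 0.175). Tnfrsf4, which encodes OX40 itself, varied least of the 64 probe sets: all 8 arrays lay between -0.08 and 0.03, and its KO DMSO difference was -0.05 with a 95% interval of -0.28 to 0.17.

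The receptors with the largest differences under digoxin in KO cells, apart from those above, were small in every comparison. Tnfrsf11a, the RANKL receptor, stood on probe set 1419214_at at 0.29 and 0.27 in KO digoxin, -0.12 and 0.19 in KO DMSO and -0.04 and 0.16 in WT digoxin, against -0.04 and 0.04 in WT DMSO. Ngfr, the neurotrophin receptor of the family, stood on 1421241_at at 0.05 and 0.07 in KO digoxin, -0.05 and -0.32 in KO DMSO and -0.19 and 0.29 in WT digoxin, against 0.01 and -0.01 in WT DMSO. Tnfrsf9, which encodes CD137, stood on 1421481_at at -0.22 and -0.07 in KO digoxin, -0.11 and 0.26 in KO DMSO and -0.09 and 0.37 in WT digoxin, against 0.06 and -0.06 in WT DMSO. WT digoxin overlapped WT DMSO for Tnfrsf11a, Ngfr and Tnfrsf9 alike. The probe sets given here for Ngfr and Tnfrsf9 were at the level of 2 to 4, the lowest range read. The other probe sets of Tnfrsf9, 1428034_a_at and 1460469_at, were at 8 or above and differed by 0.17 and 0.09 in KO DMSO. The remaining receptors were the TNF receptors Tnfrsf1a and Tnfrsf1b, the costimulatory receptors Cd27 and GITR (Tnfrsf18), HVEM (Tnfrsf14), the BAFF and APRIL receptor TACI (Tnfrsf13b), Cd40, the lymphotoxin β receptor Ltbr and the death receptor Tnfrsf21. With the other probe sets of Ngfr, Tnfrsf11a and Tnfrsf9 they differed by -0.16 to 0.35 in KO DMSO and by -0.28 to 0.31 in WT digoxin, and none was called in any comparison.

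**Figure D2:**
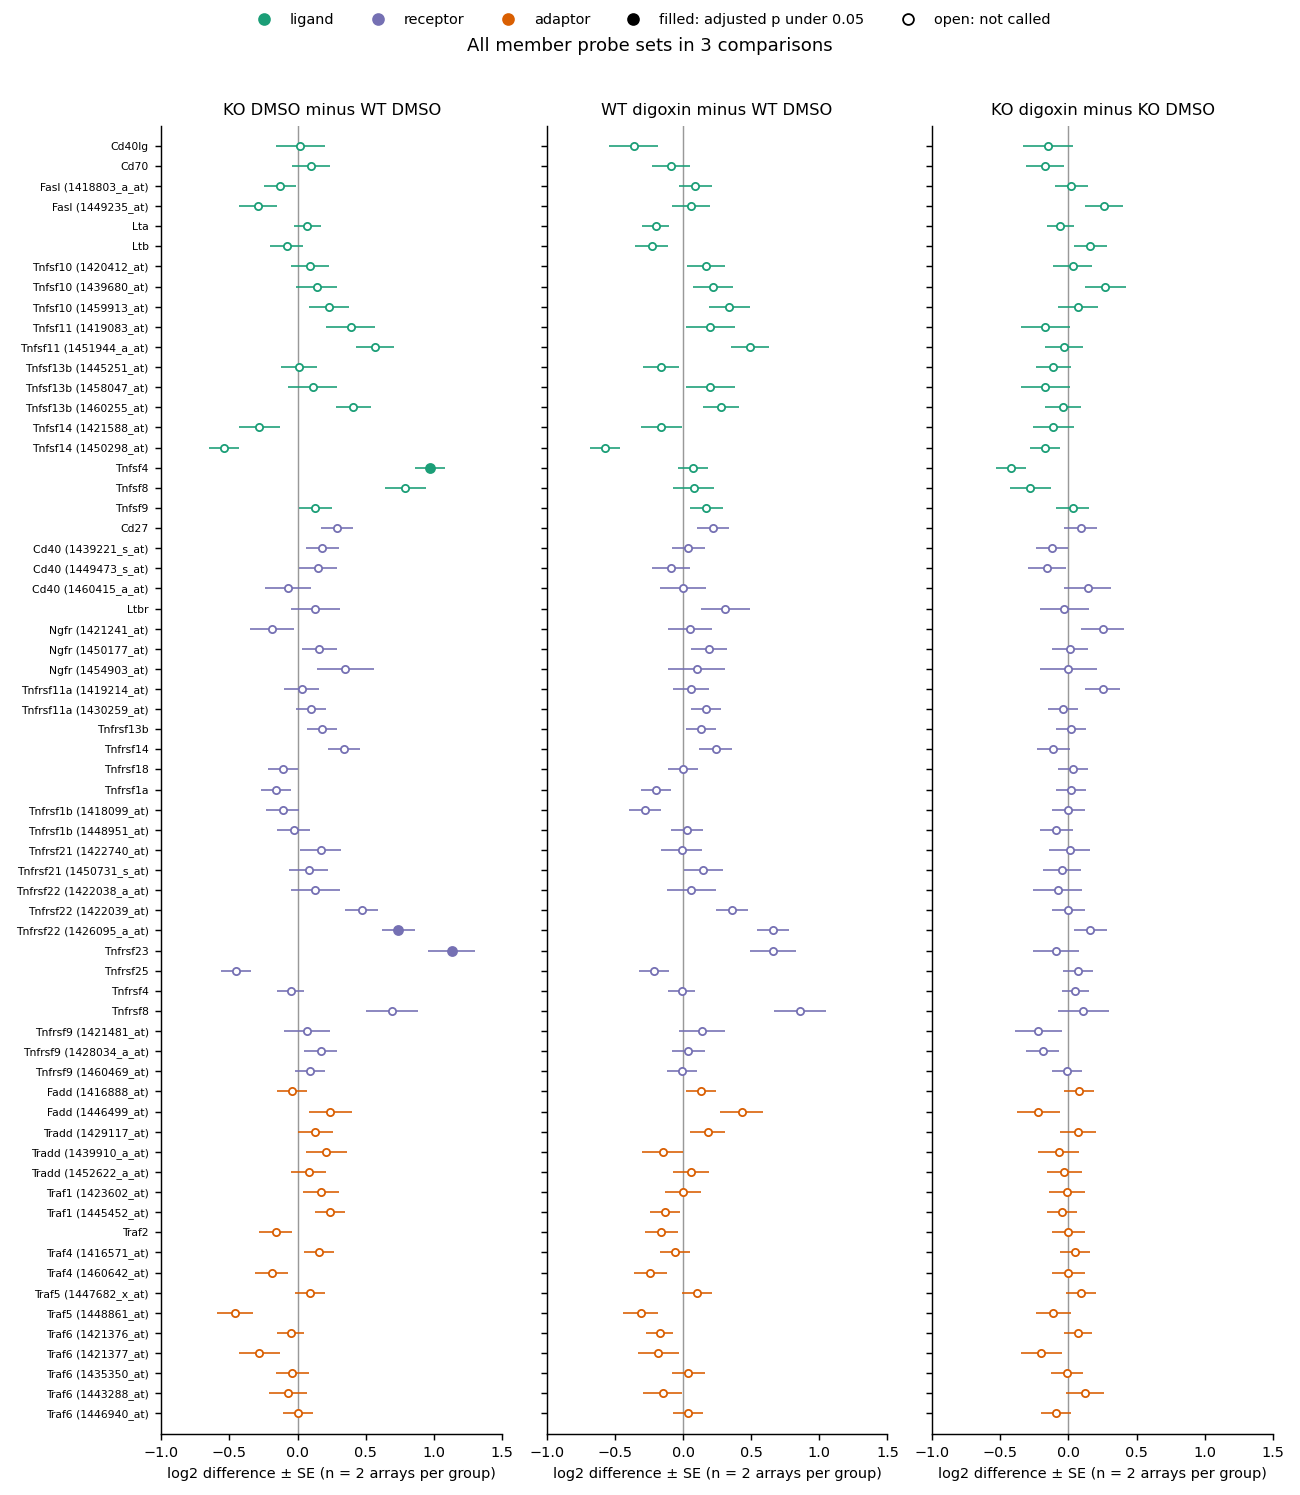
Log2 difference with its standard error (horizontal axis, n = 2 arrays per group) of all 64 member probe sets (vertical axis) for KO DMSO minus WT DMSO, WT digoxin minus WT DMSO and KO digoxin minus KO DMSO. Filled points mark the 3 calls, all in the first panel, and all points of the third panel lie between -0.42 and 0.27.

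No adaptor probe set was called in any comparison, beside 0.0% to 0.941% of all probe sets. In KO DMSO all 17 lay within 0.5 of WT DMSO, as did 44030 of all 45037 probe sets. At an unadjusted p under 0.05 there was 1 (5.88%), beside 9.06% of all probe sets. That 1 was Traf5, an adaptor of OX40, CD27 and CD30, on probe set 1448861_at. It stood at -0.58 and -0.55 in KO digoxin, -0.45 and -0.46 in KO DMSO and -0.14 and -0.48 in WT digoxin, against -0.03 and 0.03 in WT DMSO. All 6 arrays lay below both WT DMSO arrays, and the WT digoxin arrays lay farther apart than those of any other group. The differences were -0.46 ± 0.13 in KO DMSO (adjusted p = 0.231), -0.31 in WT digoxin (adjusted p = 0.766) and -0.56 in KO digoxin (adjusted p = 0.0808). Its second probe set, 1447682_x_at, differed by 0.09 in KO DMSO.

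Fadd, which links death receptors to caspase activation, stood on probe set 1446499_at at -0.16 and 0.22 in KO digoxin, 0.33 and 0.15 in KO DMSO and 0.26 and 0.60 in WT digoxin, against -0.08 and 0.08 in WT DMSO. The WT digoxin arrays were above WT DMSO, while KO digoxin overlapped KO DMSO. Probe set 1446499_at was at the level of 2 to 4, the lowest range read. On the other Fadd probe set, 1416888_at, at 4 to 8, KO DMSO differed from WT DMSO by -0.04 and WT digoxin by 0.13. Traf4, a TRAF with roles outside immune signalling, stood on 1460642_at at -0.13 and -0.25 in KO digoxin, -0.13 and -0.25 in KO DMSO and -0.15 and -0.33 in WT digoxin, against 0.09 and -0.09 in WT DMSO. Its 6 arrays outside WT DMSO lay just below both WT DMSO arrays, while its other probe set, 1416571_at, differed by 0.16 in KO DMSO. Traf6, the adaptor shared by RANK, CD40 and Toll-like receptors, stood on 1421377_at at -0.51 and -0.46 in KO digoxin, -0.04 and -0.52 in KO DMSO and -0.13 and -0.22 in WT digoxin, against 0.06 and -0.06 in WT DMSO. The KO DMSO arrays lay far apart and overlapped WT DMSO, and the 4 other probe sets of Traf6 lay within 0.07 of WT DMSO in KO DMSO. The remaining adaptors, Tradd, Traf1 and Traf2, differed by -0.16 to 0.24 in KO DMSO and by -0.16 to 0.18 in WT digoxin.

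Ligands and their receptors were also set side by side; of the values in this paragraph only that of Tnfsf4 in KO DMSO was called. For OX40 the ligand differed by 0.97 in KO DMSO and the receptor Tnfrsf4 by -0.05. For CD30 the KO DMSO differences were 0.79 for the ligand Tnfsf8 and 0.69 for the receptor Tnfrsf8, while in WT digoxin the ligand was at 0.08 and the receptor at 0.86. For RANK the probe sets of the ligand were at 0.57 and 0.39 and the 2 probe sets of Tnfrsf11a at 0.03 and 0.10. The probe sets of LIGHT were at -0.54 and -0.28 and its receptor HVEM (Tnfrsf14) at 0.34. The signs were opposite also in WT digoxin, with LIGHT at -0.57 and -0.16 and HVEM at 0.24. Ligands were not tested against their receptors.

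**Figure D3:**
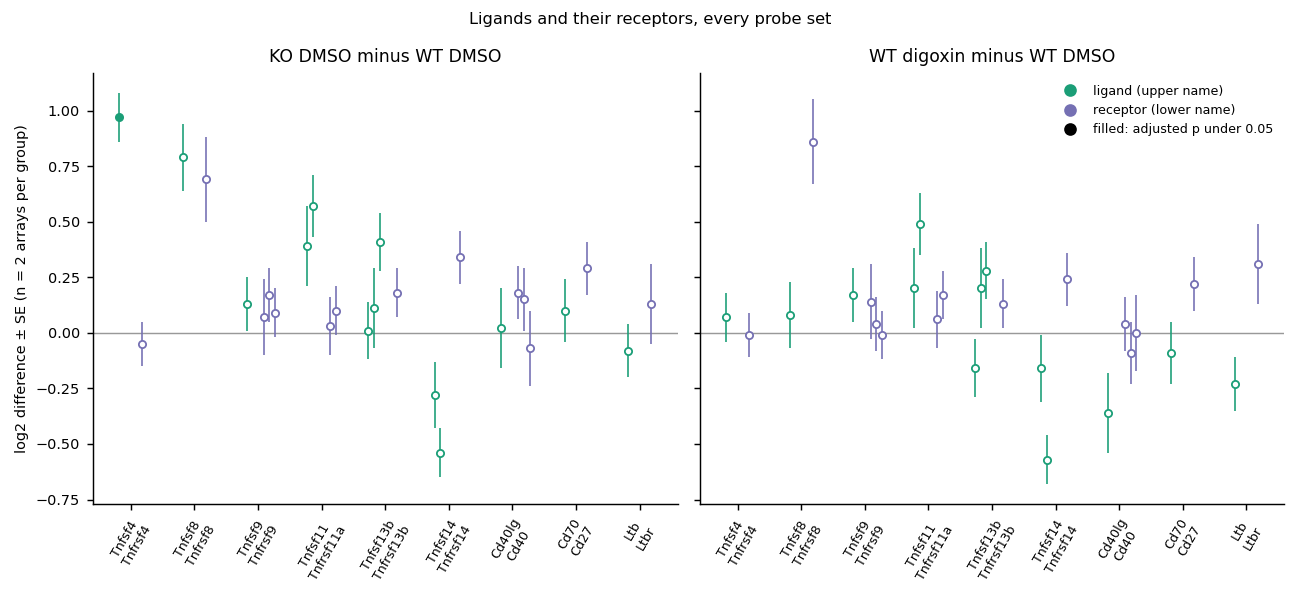
Log2 difference with its standard error (vertical axis, n = 2 arrays per group) of every probe set of 9 ligands and their receptors (horizontal axis), for KO DMSO minus WT DMSO on the left and WT digoxin minus WT DMSO on the right. Tnfsf4 at 0.97 is the only filled point, beside Tnfrsf4 at -0.05.

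Whether digoxin acted differently in the 2 genotypes was tested by the difference of its effects, KO minus WT. None of the 64 members was called by limma in that test, beside 0.0% of all probe sets, with 8 (12.5%) at an unadjusted p under 0.05, 2 higher and 6 lower, beside 2.78%, 1.46% higher and 1.32% lower. The 6 lower were Tnfrsf23 (-0.75 ± 0.24), Tnfrsf8 (-0.75 ± 0.26), Fadd on 1446499_at (-0.65 ± 0.23), Tnfsf11 on 1451944_a_at (-0.53 ± 0.19), Tnfrsf22 on 1426095_a_at (-0.49 ± 0.16) and Tnfsf4 (-0.49 ± 0.15). The 2 higher were Tnfsf14 on 1450298_at (0.40 ± 0.16) and Ltb (0.39 ± 0.17). Other probe sets of these genes gave smaller values, none at an unadjusted p under 0.05 by limma. They were 0.05 for Tnfsf14, -0.05 for Fadd, -0.37 for Tnfsf11, and -0.37 and -0.14 for Tnfrsf22. The Fadd probe set 1446499_at was at the level of 2 to 4. On the picked probe sets of Tnfrsf23, Tnfrsf8, Tnfsf11, Tnfrsf22 and Tnfsf14 the digoxin difference in WT cells was 0.49 to 0.86 in size. In KO cells it was between -0.17 and 0.16. Tnfsf4 had the reverse arrangement, with 0.07 in WT cells and -0.42 in KO cells. These members were picked by that test, so unlike differences in the 2 genotypes follow from the choice. The test also uses the WT DMSO arrays on which the differences of KO DMSO and WT digoxin from WT DMSO rest, and is not separate from them. The median absolute digoxin difference of the members was 0.08 in KO cells and 0.16 in WT cells, beside 0.09 in KO cells and 0.10 in WT cells over all probe sets.

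In 3 members the arrays of the drug and the vehicle were in opposite order in the 2 genotypes. How many of all probe sets show such an order was not counted, so the 3 cannot be read as more than any set would hold. Ltb, a subunit of the membrane lymphotoxin, was at -0.01 and 0.16 in KO digoxin, -0.04 and -0.11 in KO DMSO and -0.23 and -0.23 in WT digoxin, against 0.11 and -0.11 in WT DMSO. Digoxin arrays were thus above DMSO arrays in KO cells and below them in WT cells, with a difference of the effects of 0.39 (unadjusted p = 0.0442, adjusted p = 1.0). For Tnfrsf14 the effects were -0.11 in KO cells and 0.24 in WT cells, and for Traf6 on 1421376_at they were 0.07 in KO cells and -0.17 in WT cells, with adjusted p-values of 1.0 for the difference.

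**Figure D4:**
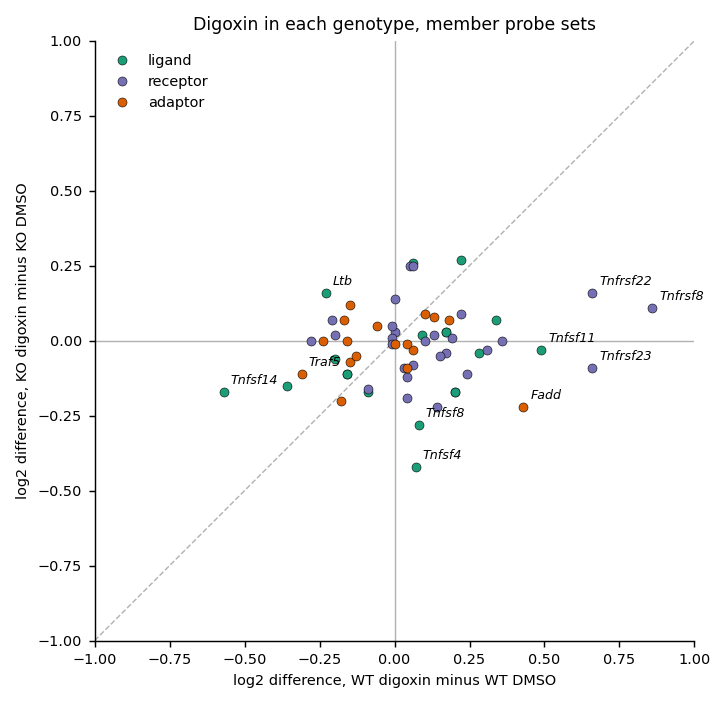
Log2 difference of digoxin from DMSO in KO cells (vertical axis) against that in WT cells (horizontal axis) for the 64 member probe sets, with equal values on the dashed line. Tnfrsf8, Tnfrsf22, Tnfrsf23 and Tnfsf11 lie at 0.49 to 0.86 on the WT axis and at -0.09 to 0.16 on the KO axis, and Tnfsf4 lies lowest on the KO axis at -0.42.

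Between the genotypes under digoxin no member was called. In KO digoxin against WT digoxin, 0 of 64 members were called by limma, beside 0.00222% of all probe sets, with 7 (10.9%) at an unadjusted p under 0.05, beside 4.77%. The largest member difference was that of Tnfsf4, 0.47 ± 0.11 (adjusted p = 0.526), followed by Tnfsf8 at 0.43 ± 0.15 (adjusted p = 0.98). The differences of all 64 were under 0.5 in size, as were those of 44747 of all 45037 probe sets. Between KO digoxin and KO DMSO the 64 were under 0.5 too, as were 44933 of all 45037 probe sets.

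Other genes of the pathway were taken from 3 lists. Of 16 further ligands and receptors, 12 were measured with 22 probe sets, and of 22 signalling genes below the receptors, 20 were measured with 53. No probe set of either list was called in any comparison, beside 0.0% to 0.941% of all probe sets. At an unadjusted p under 0.05 in KO DMSO they counted 2 (9.09%) and 5 (9.43%), beside 9.06% of all probe sets. The third list held NF-κB subunits and genes of the feedback on NF-κB, with 13 of 15 genes and 23 probe sets. In KO DMSO none of the 23 was called by limma, beside 0.611% of all probe sets. At an unadjusted p under 0.05 there were 10 (43.5%), 9 of them lower, beside 9.06% of all probe sets, 5.16% lower. In WT digoxin none was called, beside 0.0622%, with 11 (47.8%), all lower, beside 6.26% of all probe sets, 3.1% lower. Of the 23 probe sets 5 belong to Nfkbia, so these shares count some genes more than once. The median difference of the 23 was -0.13 in KO DMSO and -0.20 in WT digoxin.

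In KO digoxin 2 of the 23 were called, both lower, beside 0.941% of all probe sets called and 0.626% called lower. At an unadjusted p under 0.05 there were 11 (47.8%), 1 higher and 10 lower, beside 13.9% of all probe sets, 6.64% higher and 7.25% lower. Both calls were probe sets of Nfkbia, the inhibitor IκBα that NF-κB itself induces. Probe set 1448306_at stood at -0.67 and -0.81 in KO digoxin, -0.51 and -0.53 in KO DMSO and -0.64 and -0.67 in WT digoxin, against 0.11 and -0.11 in WT DMSO. All 6 arrays lay below both WT DMSO arrays. It fell by 0.74 ± 0.12 in KO digoxin (adjusted p = 0.0196), and 1449731_s_at fell by 0.77 ± 0.11 (adjusted p = 0.013). Of its 5 probe sets, 1420089_at did not follow, with arrays at -0.57 and 0.41 in KO digoxin, -0.39 and 0.61 in KO DMSO and -0.65 and 0.51 in WT digoxin, against 0.23 and -0.23 in WT DMSO.

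**Figure D5:**
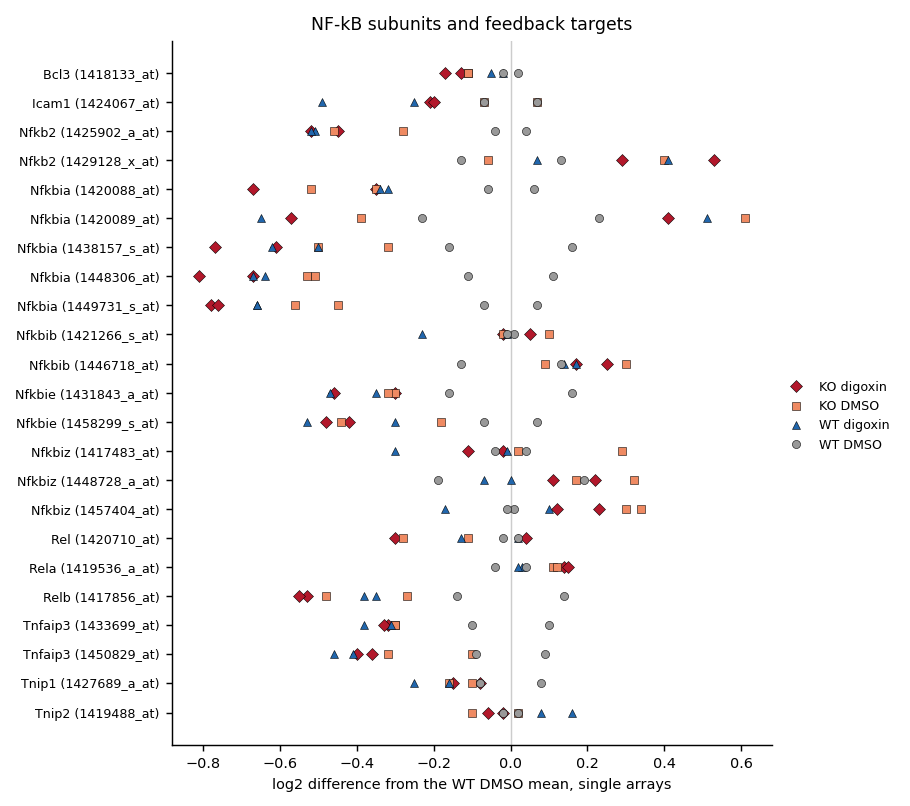
Log2 difference from the WT DMSO mean (horizontal axis) on each of the 8 arrays, by marker shape and colour, for the 23 probe sets of NF-κB subunits and feedback genes (vertical axis). The arrays of KO digoxin, KO DMSO and WT digoxin lie below 0 for 4 of the 5 Nfkbia probe sets, and those of 1420089_at lie on both sides of 0.

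Marker lists of cell types differed from WT DMSO by amounts like those of many members. The mean of the 11 CD4 T cell probe sets was 0.26 and 0.23 in KO digoxin, 0.20 and 0.21 in KO DMSO and 0.15 and 0.16 in WT digoxin, against -0.04 and 0.04 in WT DMSO. The mean of the 12 B cell probe sets was 0.18 and 0.14 in KO digoxin, 0.10 and 0.12 in KO DMSO and 0.14 and 0.28 in WT digoxin, against 0.05 and -0.05 in WT DMSO. All arrays of KO digoxin, KO DMSO and WT digoxin lay above both WT DMSO arrays in the B cell list and in the CD4 T cell list. The mean of the 9 myeloid and dendritic cell probe sets was 0.13 and 0.32 in KO digoxin, 0.02 and 0.17 in KO DMSO and 0.06 and 0.22 in WT digoxin, against -0.02 and 0.02 in WT DMSO. The lists for NK, CD8 T and gamma delta T cells had means of 0.09 to 0.39 in KO digoxin, 0.02 to 0.29 in KO DMSO and 0.00 to 0.36 in WT digoxin, against -0.09 to 0.09 in WT DMSO. Of the defining markers, Ncr1 of NK cells was at the level of 2 to 4 and Cd79a of B cells at 4 to 8. No marker probe set was called in KO DMSO, WT digoxin or KO digoxin against WT DMSO, beside 0.611%, 0.0622% and 0.941% of all probe sets. At an unadjusted p under 0.05, 4 of the 9 myeloid and dendritic cell probe sets (44.4%) were higher in KO digoxin, beside 6.64% of all probe sets. In WT digoxin 4 of the 12 B cell (33.3%) and 2 of the 6 NK cell probe sets (33.3%) were higher, beside 3.17%. In KO DMSO each of these lists had 1 higher, and none of their probe sets was lower. Of the 11 CD4 T cell probe sets, 3 (27.3%) were higher in KO DMSO, beside 3.9% of all probe sets. In WT digoxin and in KO digoxin 2 of the 11 (18.2%) were higher, beside 3.17% and 6.64%. As Tnfsf4, Cd40, Tnfsf13b and Tnfrsf13b are known on B cells, dendritic cells or other myeloid cells too, these values stand beside theirs, and the part of other cells in the members' differences was not tested.

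The promoters of Tnfrsf23 and Tnfsf14 are shown because these genes were called in opposite directions in KO digoxin cells; the table used here held no window for Tnfsf4 or Tnfrsf22. Each runs from 250 bases before to 50 bases after the start of the gene in RefSeq on build GRCm38.p6, is read 5′ to 3′ on the gene's own strand, and has in capitals the matches to GGGNNNNNCC, a κB type motif, on either strand. The window of Tnfrsf23 is chr7:143685826-143686125 on the minus strand and that of Tnfsf14 is chr17:57194132-57194431 on the minus strand.
Tnfrsf23: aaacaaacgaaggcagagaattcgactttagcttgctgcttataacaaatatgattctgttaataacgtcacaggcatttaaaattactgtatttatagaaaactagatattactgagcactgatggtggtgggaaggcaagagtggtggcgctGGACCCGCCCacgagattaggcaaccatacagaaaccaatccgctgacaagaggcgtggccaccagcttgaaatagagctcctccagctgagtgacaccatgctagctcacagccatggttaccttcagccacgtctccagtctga
Tnfsf14: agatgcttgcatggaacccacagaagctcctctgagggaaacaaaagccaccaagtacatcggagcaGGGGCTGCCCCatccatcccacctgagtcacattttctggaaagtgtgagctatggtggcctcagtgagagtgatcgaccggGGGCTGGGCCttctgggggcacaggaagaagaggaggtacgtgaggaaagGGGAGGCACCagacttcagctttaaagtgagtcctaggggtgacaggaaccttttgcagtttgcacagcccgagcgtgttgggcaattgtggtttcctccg

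Tnfrsf23 had 1 match to GGGNNNNNCC and Tnfsf14 had 4, of which 2 overlap, and neither window held AGGTCA, the half-site of nuclear receptors such as RORγt. Windows were found for 29 of the 36 member genes, 32 windows in all. GGGNNNNNCC was in 23 of the 32 (71.9%), beside 50.8% of the 32851 windows of all genes, and AGGTCA in 4 (12.5%), beside 16.3%; both strands were searched. A match describes these letters and not a bound site.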

How the data were processed

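The authors deposited log2 values, summarised with RMA per the submitters' processing notes, and analysed in GeneSpring per the design text. In these deposited log2 values the WT DMSO arrays of each probe set sum to 0 within 1e-06, so each value is a difference from their mean; no label records this step, and no absolute level is left. Level ranges were read from the binary step of the single-precision numbers, which gave the right range for 98.2% of 2000 simulated probe sets. Of 45101 probe sets, 64 controls were left out. No build is named for the array values. Genes were named from the platform annotation.

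The 45037 probe sets were fitted in 1 model of 4 group means with limma 3.58.1 in R 4.3.3 (lmFit, eBayes, two-sided, 4 residual and 5.8 prior degrees of freedom) and adjusted by Benjamini-Hochberg within each of 6 comparisons, and 1 further comparison, KO DMSO against WT digoxin, was added after values were seen. The median SE of a difference was 0.13. Array number limits the precision. The fit was tested on simulated data with independent noise on each array. That test does not cover the correlated replicate differences given below.

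The members and gene lists were chosen with earlier results of these data known. Values on every array are given for members called in any comparison and for the 3 genes of each role with the largest difference in KO DMSO, in WT digoxin and under digoxin in KO cells; Tnfrsf25, Tnfrsf4, Ltb and Nfkbia were chosen after their values were seen. Alternatives left out each array in turn, added a replicate block, fitted compared groups only, normalised by quantiles or medians, weighted arrays, used robust eBayes, kept 1 probe set per gene or kept levels of 4 or above.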

Additional observations from a re-analysis of the deposited data

How the results depend on the processing

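No called member changed its direction under any alternative. Leaving out each array in turn gave 0 to 4 called members in KO DMSO against WT DMSO and 0 to 4 in KO digoxin against WT DMSO, both 3 as reported; without either WT DMSO array both were 0. Fitting only the compared groups left 1 call in KO DMSO, Tnfsf4, and over all probe sets 81 in place of 275. Quantile normalisation of the centred values left 0 member calls in both, and 5 and 6 over all probe sets in place of 275 and 424. Centring on the WT DMSO mean gives the WT DMSO arrays a narrower spread over probe sets (SD 0.094) than the other arrays (0.171 to 0.276). This normalisation makes the spreads equal and so widens that of WT DMSO. It therefore cannot show whether the calls against WT DMSO are fragile. Array weights gave 5 in KO digoxin, and 1 probe set per gene gave 1 (Tnfsf4, adjusted p = 0.0412) in KO DMSO against WT digoxin, where 0 were reported. Over all probe sets, leaving out arrays gave 21 to 318 calls in KO DMSO, 21 to 476 in KO digoxin and 3 to 25 in WT digoxin (28 as reported), where quantile normalisation gave 5, the compared groups alone 15 and levels of 4 or above 6; in KO digoxin the compared groups alone gave 661 and array weights 716. The members called under digoxin in KO cells, in KO digoxin against WT digoxin and in the difference of the digoxin effects were 0 under all alternatives run. With the replicate number as a block, KO DMSO and KO digoxin kept 3 calls each, and all other counts were 0. The labels do not say that a number pairs arrays. Replicate differences of KO digoxin, KO DMSO and WT digoxin correlated at 0.3 to 0.46 with each other, so same-numbered arrays of these groups deviated together, and at -0.24 to -0.13 with those of WT DMSO, whose numbers may be crossed; the labels do not settle this. Crossing them in the block, chosen after seeing the data, gave 7 member calls in KO DMSO, 7 in KO digoxin, 2 in WT digoxin and 1 in KO DMSO against WT digoxin, and 623, 1394, 94 and 10 over all probe sets.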
